A study of Arabidopsis thaliana with 8 samples.

Results

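Brassinosteroids are plant steroid hormones that drive cell elongation and leaf expansion. They are made from sterols by a series of cytochrome P450 enzymes and bind the receptor kinase BRI1 at the cell surface; the resulting signal inactivates the kinase BIN2, so that the transcription factors BZR1 and BES1 can act in the nucleus. BZR1 and BES1 in turn are known to repress hormone synthesis genes and to switch on growth regulators such as PRE1.

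The 10 genes described here stand at successive steps of this pathway and were chosen by name, as the loci of DWF4, CPD, BR6OX2, BAS1, BRI1, BIN2, BZR1, BES1, PRE1 and IBH1. The choice was made with earlier results of these data known. All 10 were found among the 27826 loci of the expression table. Their transcripts were measured in rosette leaves of Arabidopsis thaliana on 8 Affymetrix arrays, 4 from wild type Col-0 plants and 4 from a mutant that the labels call animaa50 and describe as having a depleted steady-state level of NAA50, an N-terminal acetyltransferase. Plants of both groups were 7 weeks old, were grown on soil in short days without any further treatment named, and were harvested 2 h after the lights came on. How the mutant was made, and whether each array came from separate plants, is not stated in the labels, so p-values reflect the variation from array to array, which may be technical.

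Expression values were taken as log2, so a difference of 1 is a 2-fold change, and every difference is the mean of the arrays labelled NAA50-depleted minus the wild type mean. The transcript of the targeted gene went against the label: NAA50 (AT5G11340) read 4.71, 4.54, 4.23 and 4.75 on the wild type arrays and 10.43, 10.52, 10.24 and 10.33 on the arrays labelled depleted. Whether the label refers to transcript or protein is not stated, and the directions given here are those of the group labels. An exchange of the labels, which would reverse every rise and fall given here, was not tested, nor was a reading by these probes of an introduced NAA50 transcript. Over all loci 14.5% passed an adjusted p of 0.05 in limma, 6.95% higher and 7.58% lower, while at a mean above 4 these shares were larger (28.6%, 13% and 15.6%). The tissue label was borne out by markers: the 4 mesophyll genes had a mean level of 11.59 to 11.83 on every array, while the means of 3 root genes and 4 flower genes lay between 1.40 and 1.94, below the array median of 2.73. Of 28 markers of leaf cell types and other organs, LTP1 of the epidermis (-0.84 ± 0.12, SE) and KAT1 of guard cells (-0.92 ± 0.21) fell and none rose. These make up 7.14% of the markers, beside 7.58% of all loci called lower. The other epidermis markers differed by -0.25 to 0.037 and the other guard cell markers by -0.45 and -0.35, and none of these was called. The mean level of the 5 epidermis markers ran from 7.10 to 7.37 on wild type arrays and from 6.77 to 7.06 on labelled-depleted arrays, and that of the 3 guard cell markers from 4.59 to 5.20 and from 4.16 to 4.60. Their part in the decreases below was not tested, and fewer cells of a type cannot be told apart from less RNA per cell in whole leaves.

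Between the groups, 4 of the 10 genes passed the threshold, against 14.5% of all loci. PRE1, a growth-promoting helix-loop-helix protein, fell most, by a factor of 4.31. The synthesis enzymes BR6OX2 and CPD fell by smaller amounts, and BIN2, the kinase that restrains the pathway, rose. DWF4, BAS1, BRI1, BZR1, BES1 and IBH1 did not pass. The groups did not overlap for 5 of the 10 genes (2 higher and 3 lower), where they did not for 18.8% of all loci (8.48% higher and 10.4% lower). The median of the 10 differences was -0.038, beside -0.030 over all loci. Of the 9 with a mean above 4, 3 passed, a share of 33.3% that lies close to the 28.6% of all loci of that brightness.

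**Figure D1:**
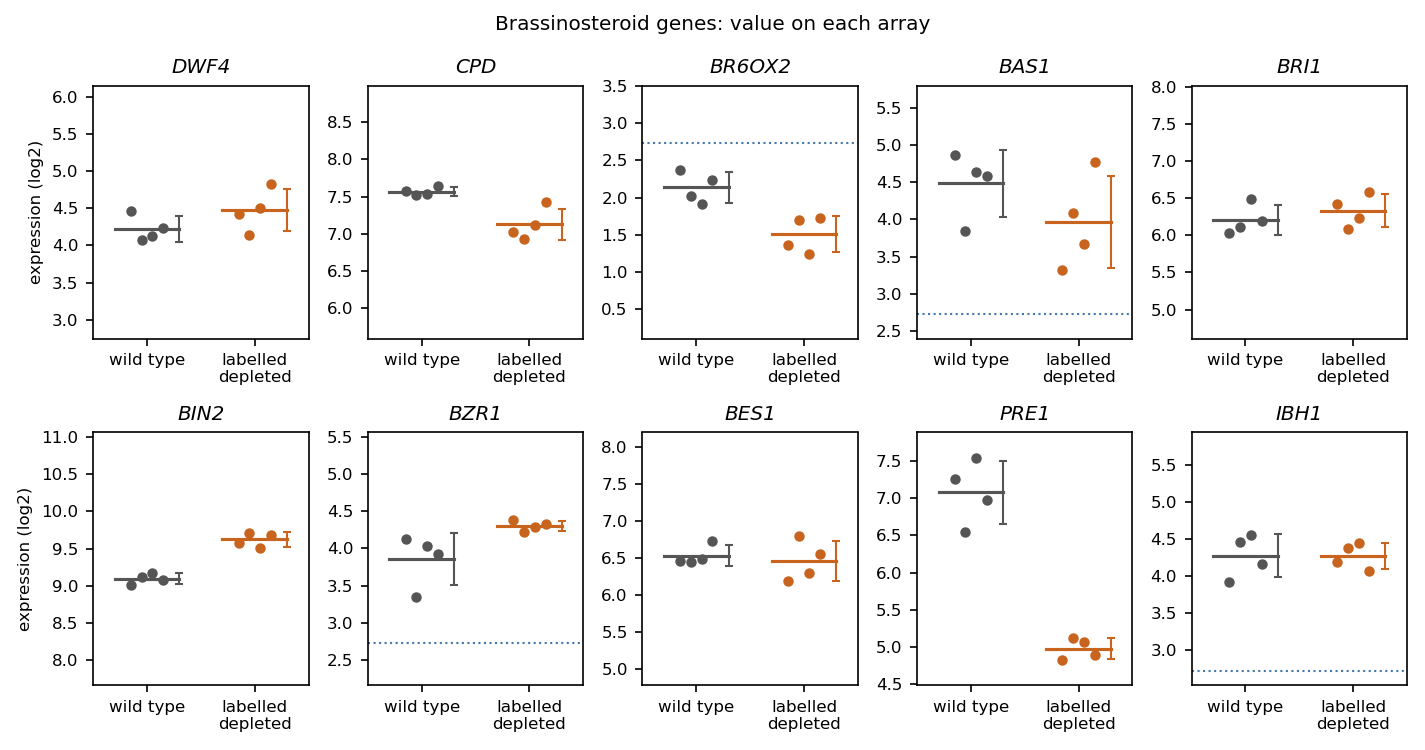
Log2 expression of the 10 brassinosteroid genes on each array, with wild type in grey and the arrays labelled NAA50-depleted in orange; lines are group means, bars are 1 SD, all panels span the same height, and the dotted line, where in range, is the array median of 2.73. The groups are apart for CPD, BR6OX2, BIN2, BZR1 and PRE1 and overlap for the other genes.

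The synthesis enzymes came first. DWF4 (AT3G50660) is the P450 that hydroxylates the sterol side chain, often regarded as the rate-limiting step. Its values were 4.46, 4.07, 4.12 and 4.24 on the wild type arrays and 4.43, 4.14, 4.51 and 4.83 on the labelled-depleted arrays. The groups overlapped, with labelled-depleted replicate 4 the highest of all. The difference of 0.25 ± 0.16 (SE, n = 4 arrays per group) did not pass (adjusted p = 0.359), and its 95% interval ran from -0.090 to 0.60. Without labelled-depleted replicate 4 the difference was 0.14.

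CPD (AT5G05690), the P450 that oxidises the sterol ring, read 7.57, 7.52, 7.54 and 7.64 in wild type and 7.03, 6.93, 7.12 and 7.42 on the arrays labelled depleted. Every labelled-depleted array lay below every wild type array, and the wild type values were tight (SD 0.055 against 0.21). The decrease was -0.44 ± 0.13 (adjusted p = 0.0367), or 1.36-fold. The call was lost when any array other than labelled-depleted replicate 4 was left out, with differences of -0.46 to -0.38. It was also lost after cyclic loess normalization, at -0.32 (adjusted p = 0.133), and with the replicate number as a block (adjusted p = 0.0567).

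BR6OX2 (AT3G30180) is the oxidase that completes the synthesis of brassinolide, the most active of these hormones. It read 2.37, 2.03, 1.92 and 2.24 in wild type and 1.37, 1.70, 1.23 and 1.73 on the labelled-depleted arrays. The groups did not overlap, yet all 8 values lay below the array median of 2.73, and the table does not show how far such dim signals exceed background. The decrease of -0.63 ± 0.15 (adjusted p = 0.0171), or 1.55-fold, is thus less certain in size. Without labelled-depleted replicate 1 it was -0.58 and missed the threshold (adjusted p = 0.0517), and the count of the 10 genes called lower was then 1 in place of 3.

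BAS1 (AT2G26710), a P450 that inactivates brassinosteroids, was the most variable of the 10. Its values were 4.87, 3.84, 4.64 and 4.59 in wild type and 3.32, 4.09, 3.67 and 4.77 on the labelled-depleted arrays. Wild type replicate 2 sat among the labelled-depleted values and labelled-depleted replicate 4 among the wild type values. The residual SD of 0.54 was above that of 97.5% of all loci, and the difference of -0.52 ± 0.30 did not pass (adjusted p = 0.315). Its 95% interval, -1.18 to 0.13, covers decreases of more than 2-fold as well as no change. Without labelled-depleted replicate 1 the difference was -0.31, and without replicate 4 of that group -0.79 (adjusted p = 0.0709).

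The receptor kinase gene BRI1 (AT4G39400) read 6.04, 6.11, 6.49 and 6.19 in wild type and 6.42, 6.09, 6.23 and 6.58 on the labelled-depleted arrays. The values of the groups were interleaved, and the difference was 0.12 ± 0.15 (adjusted p = 0.675; 95% interval -0.20 to 0.45). A 2-fold change of the receptor transcript in either direction lay outside that interval. With 1 array left out it spanned 0.040 (without labelled-depleted replicate 4) to 0.22 (without wild type replicate 3).

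BIN2 (AT4G18710), the GSK3-like kinase that phosphorylates BZR1 and BES1 and so holds the pathway off, gave the most uniform values. They were 9.01, 9.12, 9.18 and 9.07 in wild type and 9.57, 9.72, 9.51 and 9.69 on the labelled-depleted arrays. All labelled-depleted values exceeded all wild type values, and its residual SD of 0.084 was near the low end of all loci, at percentile 2.40. BIN2 rose by 0.53 ± 0.11 (adjusted p = 0.00651), or 1.44-fold (95% interval 1.22 to 1.70), and was called without any single array, at 0.50 to 0.56.

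BZR1 (AT1G75080) and BES1 (AT1G19350) encode closely related transcription factors that carry the signal to target genes. BZR1 read 4.12, 3.34, 4.03 and 3.92 in wild type and 4.38, 4.22, 4.29 and 4.33 on the labelled-depleted arrays. The groups were apart, but wild type replicate 2 lay well below the other 3. The difference of 0.45 ± 0.16 did not pass (adjusted p = 0.0978), and without that array it was 0.28.

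BES1 read 6.45, 6.45, 6.49 and 6.74 in wild type and 6.19, 6.79, 6.30 and 6.55 on the labelled-depleted arrays, so that the groups overlapped. Its difference of -0.074 ± 0.15 (adjusted p = 0.825; 95% interval -0.40 to 0.25) turned to 0.039 after cyclic loess and to 0.016 without labelled-depleted replicate 1. Whether both genes shifted unequally was tested on the per-array contrast BZR1 minus BES1, which was -2.68 ± 0.35 in wild type and -2.15 ± 0.33 on the labelled-depleted arrays (SD, n = 4). In a two-sided exact permutation test this shift of 0.52 gave p = 0.0857, also 0.0857 adjusted over the 2 pairs examined. Whether the probes tell these paralogues apart was not examined.

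PRE1 (AT5G39860) and IBH1 (AT2G43060) are antagonists downstream of BZR1: IBH1 binds growth-promoting bHLH factors and blocks them, and PRE1, which does not bind DNA itself, takes IBH1 away from them. PRE1 read 7.25, 6.55, 7.55 and 6.98 in wild type and 4.82, 5.12, 5.06 and 4.89 on the labelled-depleted arrays. The lowest wild type value exceeded the highest labelled-depleted value by a wide margin. PRE1 fell by 2.11 ± 0.19 (adjusted p = 3.61e-05), a 4.31-fold decrease (95% interval 3.22 to 5.77), from percentile 93.8 of all loci to percentile 75.6. By p-value it ranked 195 among the 27826 loci, and without any single array it stayed between -2.29 and -1.95.

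IBH1 read 3.92, 4.46, 4.55 and 4.17 in wild type and 4.19, 4.38, 4.45 and 4.07 on the labelled-depleted arrays. The means were equal to 2 decimals, at 4.27, and the 95% interval of the difference, -0.35 to 0.34, leaves out any change as large as that of PRE1 (adjusted p = 0.999). The contrast PRE1 minus IBH1 was 3.34, 2.09, 3.00 and 2.82 in wild type and 0.63, 0.75, 0.61 and 0.82 on the labelled-depleted arrays. It thus shifted by -2.11, with no overlap between the groups. The two-sided exact permutation test gave p = 0.0286, the smallest that 70 splits of 8 arrays allow, and 0.0571 adjusted over the 2 pairs. This adjusted value could pass the threshold only if the other pair also gave the smallest p, however large the shift. Missing the threshold therefore says nothing about the size of the shift. As IBH1 hardly differed, the contrast mostly repeats the decrease of PRE1.

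**Figure D2:**
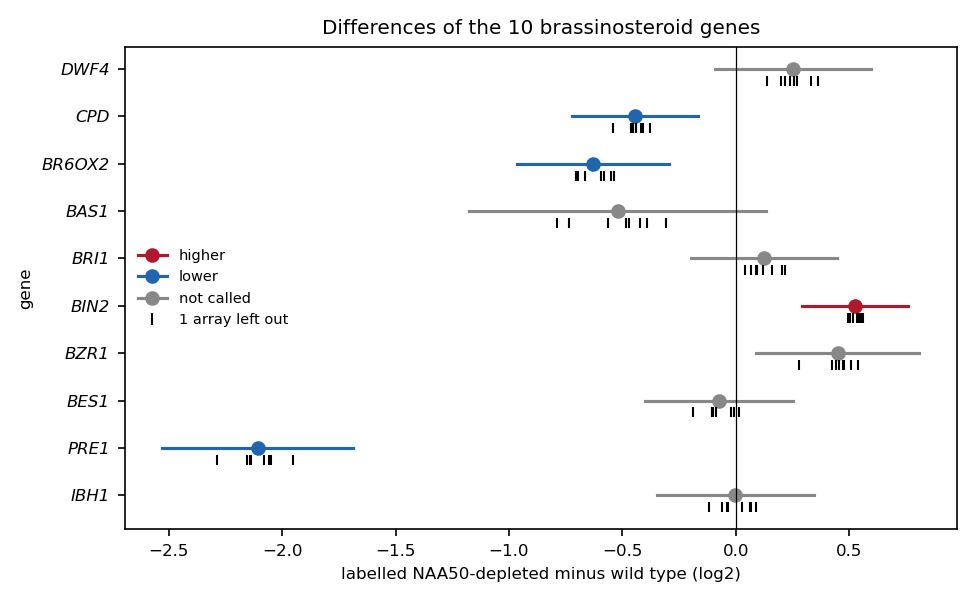
Difference between the groups for each of the 10 genes on the log2 scale (labelled NAA50-depleted minus wild type); points are the limma estimates, horizontal lines their 95% intervals, and black ticks the estimates with 1 array left out. PRE1 lies at -2.11, apart from the other 9 genes, which lie between -0.63 and 0.53.

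Over the 8 arrays, the loci whose values followed those of PRE1 most closely by Pearson correlation were SNRK2.1 (r = 0.994), CCB3 (r = 0.988) and AT2G19650 (r = 0.986). All of them were lower on the labelled-depleted arrays, by 0.50, 1.24 and 1.20 in the group means (6.94 against 6.43, 4.35 against 3.11, and 5.21 against 4.01). Since the groups differ at many loci such likeness is common, and 701 loci had an r above 0.9 with PRE1.

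The 10 genes were then set within a list of 80 genes of the pathway, themselves included. Of these, 14 rose and 11 fell, together 31.2%, while 14.5% of all loci passed. Among the 46 with a mean above 4, 10 rose and 7 fell, or 37.0% beside the 28.6% of all loci of that brightness. The median difference was 0.012, beside -0.030 over all loci. As the list was made with earlier results of these data known, these shares are no independent test of the pathway. The genes are described below by role, and roles were not tested against each other.

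**Figure D3:**
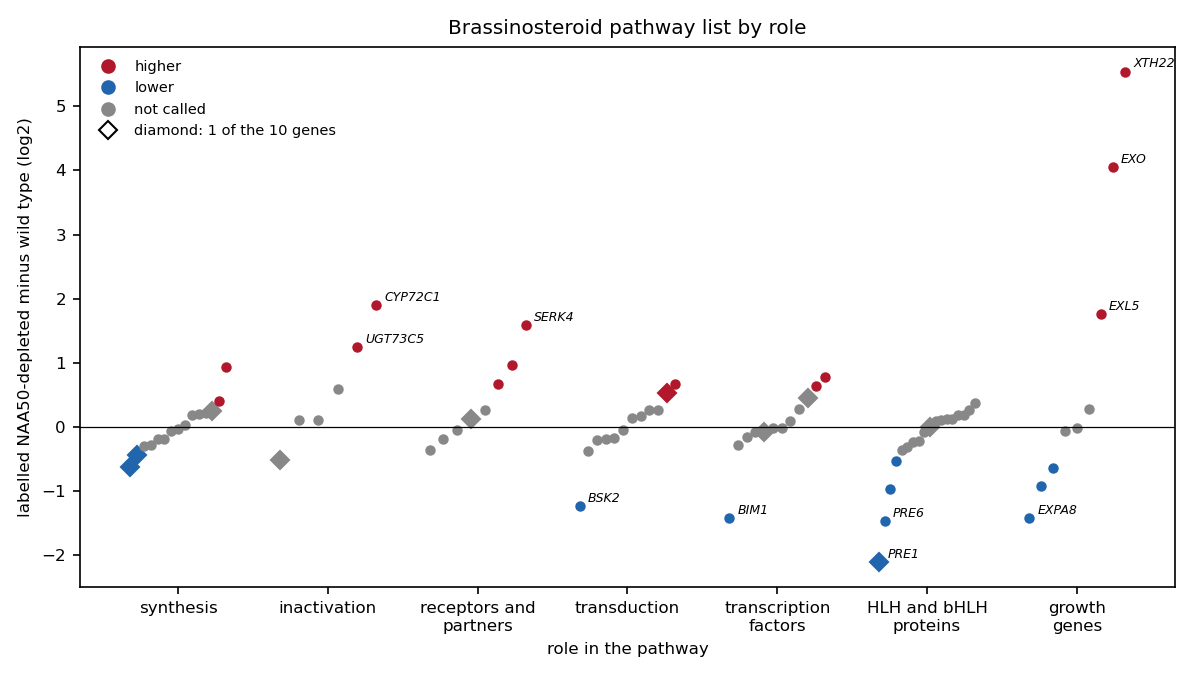
Difference between the groups for the 80 genes of the brassinosteroid list on the log2 scale, arranged by role on the x axis and by size within each role; red and blue mark genes called higher and lower in limma, grey those not called, and diamonds the 10 genes described above. Called growth genes lie on both sides of 0, whereas all called helix-loop-helix genes lie below it.

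The 18 helix-loop-helix genes downstream of the hormone had a median difference of -0.038, beside -0.030 over all loci. Of them, 4 were called lower and none higher, against 7.58% and 6.95% of all loci. Besides PRE1 these were its relatives PRE6 (-1.47 ± 0.18, adjusted p = 0.000305) and PRE2 (-0.97 ± 0.17, adjusted p = 0.00269), and BEE2 (-0.53 ± 0.14, adjusted p = 0.0221), a bHLH gene known as an early brassinosteroid response. PRE6, also called KIDARI, read 8.51, 7.92, 8.26 and 8.01 in wild type and 6.33, 7.05, 6.54 and 6.91 on the labelled-depleted arrays. No labelled-depleted value came near the wild type range. PRE2 read 4.52, 4.02, 3.96 and 3.81 in wild type and 2.89, 2.95, 3.38 and 3.21 on the labelled-depleted arrays, again without overlap.

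The other members of the PRE family did not pass. PRE3, PRE4 and PRE5 had group means of 1.27 to 1.59 in both groups, below the array median of 2.73, and differed by -0.075 ± 0.12, 0.13 ± 0.11 and -0.24 ± 0.14. The 3 family members with wild type means above the array median were thus the 3 that fell. HBI1, a growth-promoting bHLH factor that IBH1 inhibits, read 7.21 to 7.86 in wild type and 7.41 to 7.95 on the labelled-depleted arrays (difference 0.18 ± 0.17, adjusted p = 0.570). The call of BEE2 was lost after cyclic loess (-0.41), with the replicate number as a block, and when wild type replicate 1, 3 or 4, or replicate 1 or 3 of the labelled-depleted arrays, was left out (-0.51 to -0.46).

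**Figure D4:**
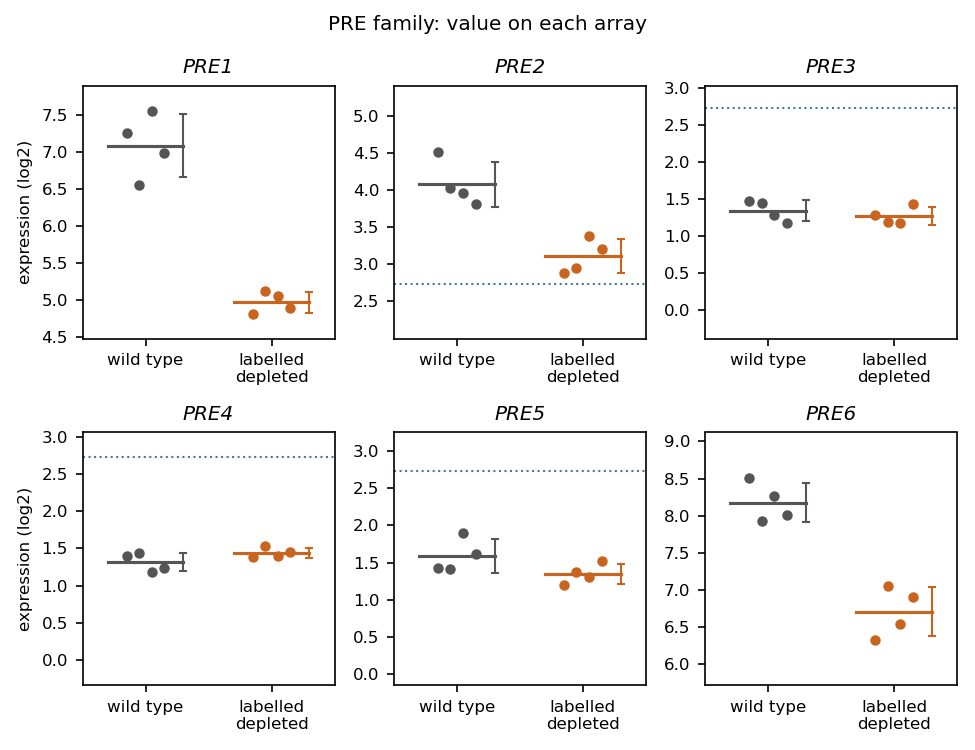
Log2 expression of the 6 PRE family genes on each array, with wild type in grey and the arrays labelled NAA50-depleted in orange; lines are group means, bars are 1 SD, all panels span the same height, and the dotted line, where in range, is the array median of 2.73. PRE1, PRE2 and PRE6 are lower on all labelled-depleted arrays, and PRE3, PRE4 and PRE5 lie below the array median in both groups.

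Of 12 transcription factor genes at the level of BZR1, 1 fell and 2 rose, together 25%. This stands beside 14.5% of all loci and 28.6% of those with a mean above 4, though BEH3, at 3.95, was not that bright. BIM1, a bHLH partner of BES1, read 8.39, 8.02, 7.93 and 7.88 in wild type and 6.39, 6.71, 6.82 and 6.60 on the labelled-depleted arrays. This decrease of -1.43 ± 0.15 (adjusted p = 7.99e-05) left the groups far apart. Its relative BIM2 was lower on every labelled-depleted array but did not pass (-0.29 ± 0.10, adjusted p = 0.0846), and BIM3 differed by -0.014 ± 0.12. MYB30, a cofactor of BES1 that also acts in defence, rose by 0.77 ± 0.16 (adjusted p = 0.00735). BEH3, a relative of BZR1, rose by 0.64 ± 0.16 (adjusted p = 0.0217), a call that was lost when wild type replicate 2, 3 or 4 was left out (0.61 to 0.62), which left 1 gene called higher.

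Of 15 genes listed for sterol and brassinosteroid synthesis, 2 rose and 2 fell, together 26.7%. This stands beside 14.5% of all loci and 28.6% of those with a mean above 4, though BR6OX2, at 1.82, was not that bright. The increases were SMT1 and SMT2, which encode methyltransferases of sterol precursors. SMT1 read 6.12, 6.02, 5.94 and 5.89 in wild type and 7.04, 6.85, 6.68 and 7.16 on the labelled-depleted arrays, without overlap, and rose by 0.94 ± 0.13 (adjusted p = 0.000574). SMT2 rose by 0.41 ± 0.11 (adjusted p = 0.0336), and its call was lost with the replicate number as a block. It was lost too when wild type replicate 2, 3 or 4, or replicate 1 or 4 of the labelled-depleted arrays, was left out (0.37 to 0.42), so that SMT1 alone was then higher.

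CPD and BR6OX2, described above, were the decreases, and both belong to the P450 steps; without labelled-depleted replicate 1 neither was called. The other P450 genes of those steps did not pass, and they differed in both directions. DWF4 differed by 0.25 ± 0.16, ROT3 by -0.30 ± 0.18, CYP90D1 by -0.28 ± 0.12 (adjusted p = 0.157) and BR6OX1, the close relative of BR6OX2, by -0.058 ± 0.19. BR6OX1 lay below the array median on all arrays. Whether sterol and P450 steps differed as groups was not tested.

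Of 6 inactivation genes, 2 rose and none fell, where 6.95% of all loci rose and 7.58% fell. CYP72C1, a P450 also known as SOB7 that lowers active brassinosteroids together with BAS1, read 1.96, 2.08, 1.61 and 1.82 in wild type and 3.76, 3.80, 3.85 and 3.67 on the labelled-depleted arrays. The increase was 1.90 ± 0.12 (adjusted p = 4.67e-06), or 3.74-fold, and it started below the array median of 2.73, so its size is less certain than its direction. BAS1, with the overlapping values given above, differed by -0.52 ± 0.30.

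UGT73C5, a glucosyltransferase that inactivates brassinosteroids and also acts on foreign compounds, read 2.46, 3.22, 3.39 and 3.38 in wild type and 4.44, 4.10, 4.99 and 3.89 on the labelled-depleted arrays. It rose by 1.24 ± 0.26 (adjusted p = 0.00769). Its close relative UGT73C6 differed by 0.60 ± 0.20 (adjusted p = 0.0711), and how far probes separate these similar genes was not examined.

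Among 8 genes for receptors and their partners, 3 rose and none fell, where 6.95% of all loci rose and 7.58% fell. BRI1 and its relatives BRL1 and BRL3 were not among those that rose. SERK4, a co-receptor kinase shared by brassinosteroid and immune receptors, read 6.08, 7.04, 6.55 and 6.28 in wild type and 7.80, 8.22, 7.95 and 8.35 on the labelled-depleted arrays. It rose by 1.59 ± 0.20 (adjusted p = 0.000342), a 3.02-fold increase without overlap. The related co-receptor BAK1 rose by 0.97 ± 0.17 (adjusted p = 0.00305).

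BKI1, an inhibitor that keeps BRI1 from its co-receptor, rose by 0.67 ± 0.18 (adjusted p = 0.0280). Its wild type values of 1.62 to 2.06 lay below the array median, and so did 3 of the 4 labelled-depleted values. The call was lost when wild type replicate 1, 2 or 4, or replicate 1 or 3 of the labelled-depleted arrays, was left out (0.50 to 0.70).

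Of 12 transduction genes between receptor and nucleus, 2 rose and 1 fell, together 25%. This stands beside 14.5% of all loci and 28.6% of those with a mean above 4, though BSK2, at 3.28, was not that bright. Besides BIN2, the phosphatase gene BSL1, which belongs to the family that switches BIN2 off, rose by 0.67 ± 0.15 (adjusted p = 0.0108). BSK2, a kinase of the family that links BRI1 to those phosphatases, read 4.38, 3.84, 3.57 and 3.81 in wild type and 2.66, 2.56, 2.62 and 2.83 on the labelled-depleted arrays. It fell by 1.23 ± 0.16 (adjusted p = 0.000446) to about the array median. The BIN2 relatives BIL1 (0.26 ± 0.12) and BIL2 (0.14 ± 0.13) did not pass.

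The 9 growth genes known to respond to brassinosteroids moved in both directions, with 3 higher and 3 lower, together 66.7%. This stands beside 14.5% of all loci and 28.6% of those with a mean above 4, though SAUR15, at 2.86, was not that bright. EXO, an extracellular protein gene of leaf growth that the hormone is known to induce, read 2.00, 2.08, 1.65 and 2.20 in wild type and 6.33, 6.01, 6.12 and 5.64 on the labelled-depleted arrays. Its increase of 4.05 ± 0.17 (adjusted p = 7.99e-07), or 16.5-fold, ranked 2 among all loci by p-value. As the wild type values lay below the array median, the fold is less certain than the direction. Its relative EXL5 rose by 1.75 ± 0.17 (adjusted p = 4.97e-05), and XTH22, a cell wall enzyme gene induced by touch as well as by brassinosteroids, by 5.54 ± 0.26 (adjusted p = 8.94e-07).

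The growth genes that fell were EXPA8, SAUR15 and BRH1. EXPA8, an expansin that loosens cell walls, read 8.88, 8.54, 8.78 and 8.55 in wild type and 6.70, 7.55, 6.79 and 8.02 on the labelled-depleted arrays. Labelled-depleted replicates 1 and 3 were the lowest, and all 4 lay under the wild type values (-1.42 ± 0.26, adjusted p = 0.00342). SAUR15, an auxin- and brassinosteroid-induced growth gene, fell by 0.92 ± 0.22 (adjusted p = 0.0152), from values near the array median and with a slight overlap between groups. BRH1, a RING finger gene that the hormone is known to repress, fell by 0.64 ± 0.16 (adjusted p = 0.0178) and missed the threshold without wild type replicate 4 (-0.60, adjusted p = 0.0524).

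KCS1, AGP4 and IAA19 did not pass. KCS1, a wax and fatty acid elongase, differed by -0.056 ± 0.14 with a 95% interval of -0.37 to 0.26. AGP4, an arabinogalactan protein gene, ranged from 4.47 to 6.19 within wild type alone, and the interval of its difference, -0.99 to 0.95, spans both directions.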

How the data were processed

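RNA from rosette leaves was hybridised to 8 arrays, 4 per genotype. Per the submitters' processing notes, the authors used RMA to make the deposited values, read here as log2, the scale on which RMA reports. No source used here states the log base, the RMA version or the chip definition. All 8 arrays held the same sorted values, from 0.69 to 13.7, so a global shift cannot be seen. The number of arrays limits the precision. Groups came from the sample titles. Loci were named through the TAIR10.1 gene table, which held 27241 of 27826, and no coordinates are used. NAA50 keeps the name of the field.

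The group difference was fitted at all loci with limma 3.58.1 in R 4.3.3 (lmFit, eBayes, no filter). P-values are two-sided and adjusted by Benjamini-Hochberg over all loci, with a threshold of 0.05, and intervals are 95%. On 27826 simulated loci the fit made 136 calls, of which 5 were false. As the data gave 4042 calls, that run does not give the error rate of the calls reported here. Of 81 listed pathway genes 80 were used, 2 of them under an alias, and 1 was left out because the gene table does not give its locus that name. Named were the 10 genes, every list gene and marker past the threshold, and the 3 loci most like the member with the smallest p. Other list genes named beside them were chosen after their values were seen. The members and lists were chosen with earlier results of these data known. The alternatives tried were a block for replicate number, cyclic loess, quantile and median scaling, a filter keeping loci above percentile 25 on at least 4 arrays, a trended robust variance, array weights, each array left out, and an adjusted p of 0.01. Same-numbered arrays deviated from their group means with correlations of -0.049 to 0.039, so the numbers were not treated as pairs.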

Additional observations from a re-analysis of the deposited data

Results flagged for a closer look

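Among the 62 groups of 4 arrays for the 10 genes and the other list genes past the threshold, 31 genes in all, Dixon's ratio marked 4 in which 1 array lay far from the other 3, where chance marks about 1 in 20 groups. BES1 read 6.74 on wild type replicate 4, against 6.45 to 6.49 on the other wild type arrays. BEH3 read 3.85 on wild type replicate 1, against 3.55 to 3.56. BEE2 read 7.02 on wild type replicate 2, against 7.30 to 7.34. XTH22 read 9.23 on labelled-depleted replicate 3, against 8.93 to 8.96. The arrays concerned were different ones in all 4 cases.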

How the results depend on the processing

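PRE1 and BIN2 kept their calls and directions under every alternative run. Quantile and median scaling could change nothing, because all 8 arrays already held the same sorted values, so they are no check. The decrease of CPD was lost with the replicate number as a block (-0.44, adjusted p = 0.0567), after cyclic loess (-0.32) and at an adjusted p of 0.01 (-0.44), and spanned -0.54 to -0.38 with 1 array left out. BR6OX2 was lost at 0.01 (-0.63) and spanned -0.70 to -0.54 with 1 array left out. The number of the 10 genes called lower was 1 at an adjusted p of 0.01 and 1 to 3 with 1 array left out, where the lowest count came without labelled-depleted replicate 1. In the pathway list 6 genes fell at 0.01 in place of 11, and 10 rose in place of 14. Over all loci 2238 were called at 0.01, in place of 4042. BES1 turned to 0.039 and IBH1 to 0.063 after cyclic loess, and with 1 array left out BES1 spanned -0.19 to 0.016 and IBH1 -0.12 to 0.091; neither was called in any of these. The causes were not tested. With the block, 3545 loci were called in place of 4042. Of the 8 arrays 2 correlated best with their own number, no more than chance would give. With 1 array left out, the exact permutation p adjusted over the 2 pairs was 0.0571 in all 8 cases for PRE1 minus IBH1 (-2.35 to -1.93) and 0.0571 to 0.171 for BZR1 minus BES1 (0.38 to 0.67). For PRE1 minus IBH1 that p is again set by the number of splits and the other pair. It is therefore no check, whereas the size of the shift is. Brightness limits the genes under the array median, whose fold sizes are uncertain.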
